A study of Mus musculus with 12 samples.

Results

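The microRNAs described here come from a pair of related gene clusters, the X-linked cluster that runs from miR-106a to miR-363 and the cluster of miR-106b, miR-93 and miR-25 on chromosome 5. They were taken by name from a quantitative RT-PCR screen of mouse epididymal fat: every arm of miR-106a, miR-20b and miR-363 that was listed, and the main arms of miR-106b, miR-93 and miR-25. Of 504 microRNA assays, 8 met this rule, 5 from the X-linked cluster and 3 from the chromosome 5 cluster. They were miR-106a-5p, miR-106a-3p, mmu-miR-20b-5p, miR-363-3p and mmu-miR-363-5p, and miR-106b-5p, miR-93-5p and miR-25-3p. The rule also covered miR-18b, which lies between miR-106a and miR-20b on the X chromosome, but no assay met it by that name.

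All animals were male C57BL/6J mice without any genetic change. The groups were defined by whether and when they were exposed to a high-fat diet, which drew 45% of its energy from fat. WL mice were exposed for the whole life, from mating of their parents until they were killed at 23 weeks. For the other groups the sources used here do not give the week of killing. UL mice were exposed through their mothers from mating until weaning, and UT mice in the womb only. CD mice had the matched control diet, with 10% of its energy from fat. For the microRNA screen each group was represented by 3 pools made from 12 mice, so the replicate is a pool, and the sources used here do not tell which mice and litters went into each pool. A pool averages its animals, and the spread between 3 pools therefore understates the spread between mice.

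A microRNA is cut from a hairpin, and each hairpin can release a 5p and a 3p arm. One arm usually accumulates and the other, the passenger arm, is mostly degraded. Bases 2 to 8 of the mature RNA, the seed, pair with target messenger RNAs and lower their output, so microRNAs with a common seed share much of their target range. The clusters described here are paralogs of the miR-17 to miR-92a cluster on chromosome 14, which is known for promoting proliferation. In cultured mouse preadipocytes that cluster speeds differentiation into adipocytes. Knockdown of miR-106b and miR-93 in cultured mouse brown adipocytes raises brown-fat genes, and mice without the cluster of miR-106b, miR-93 and miR-25 gain fat mass.

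The mature sequences are shown because some of these microRNAs differ by few bases, and they are grouped by seed, printed in capitals. Whether the assays tell such near sequences apart was not tested. RefSeq (GRCm38.p6) held a mature sequence for 7 of the 8 microRNAs. MiR-363-5p is named only. The first seed group is that of miR-17, with 4 of the 8 and the related miR-17-5p and miR-20a-5p of chromosome 14 for comparison:
miR-106a-5p: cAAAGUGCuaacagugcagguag
miR-20b-5p: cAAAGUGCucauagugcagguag
miR-106b-5p: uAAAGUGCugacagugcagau
miR-93-5p: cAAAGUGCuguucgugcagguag
miR-17-5p: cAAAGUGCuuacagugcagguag
miR-20a-5p: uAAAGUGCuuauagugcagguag
Counted from 1 at the 5′ end, with the base of the microRNA named first given first, miR-20b-5p differs from miR-20a-5p by C1U and C10U and from miR-17-5p by C10U and U12C. MiR-106a-5p differs from miR-20b-5p by A10C and C12U, and from miR-17-5p by A10U alone.

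The second seed group is that of miR-25 and miR-92a, with miR-92a-3p of chromosomes 14 and X for comparison:
miR-25-3p: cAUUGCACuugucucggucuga
miR-363-3p: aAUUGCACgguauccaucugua
miR-92a-3p: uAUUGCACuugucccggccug
The third seed belongs to a passenger arm, miR-106a-3p, and to the corresponding arm of miR-17:
miR-106a-3p: aCUGCAGUgccagcacuucuuac
miR-17-3p: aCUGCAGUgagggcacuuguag
In GRCm38.p6 the X-linked hairpins occupy chrX:52741693-52742567 on the minus strand, 875 bases with 6 hairpins. Within them the mature miR-106a-5p lies at chrX:52742541-52742563, miR-106a-3p at chrX:52742505-52742527, miR-20b-5p at chrX:52742159-52742181 and miR-363-3p at chrX:52741697-52741718. The chromosome 5 hairpins occupy chr5:138165321-138165818, also on the minus strand, 498 bases with 3 hairpins. This stretch lies inside Mcm7 (chr5:138164583-138172111), a protein-coding gene for a subunit of the replicative DNA helicase. There miR-106b-5p lies at chr5:138165787-138165807, miR-93-5p at chr5:138165574-138165596 and miR-25-3p at chr5:138165332-138165353.

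The deposited values are threshold cycles (Ct), the PCR cycle at which an assay's signal passes its threshold, and a lower Ct stands for more template. A relative level is given here as the mean Ct of a pool, taken over the 466 microRNAs with a value in every pool, minus the Ct of the assay. It is in cycles, so a higher level means more template and a difference of 1 is a 2-fold step where the product doubles in each cycle. Ct ran from 15.05 to 37.04, and 55 values of 38 microRNAs were missing, with 0 to 14 missing in a pool. Group differences were tested with limma over all 12 pools, and p-values were adjusted by the Benjamini-Hochberg method over all 504 microRNAs with a threshold of 0.05. The 3 comparisons with CD share the CD pools. The number of pools limits the precision, and so does a late Ct: the median SD within a group was 0.48 cycles for microRNAs with a mean Ct below 25 and 0.97 for those at 30 or later.

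UT 1 to 3 and WL 3 stood apart from the other 8 pools in a few assays. MiR-592-3p lay between -0.02 and 0.57 in these 4 pools, against -5.81 to -4.0 in the other 8, and miR-758-5p lay between -5.06 and -4.24, against -0.45 to 0.87. The levels of miR-676-3p (1.04 to 1.70, against -3.57 to -1.89) and miR-676-5p (-2.44 to -1.28, against 1.18 to 1.77) were exchanged in the same way. These assays were picked after their values were seen. All UT pools are among the 4, so UT and this difference cannot be told apart. WL 3 also had the widest spread around its group of all pools, an SD of 0.97 cycles, where the UL pools had 0.39 to 0.44. The 5 microRNAs listed for adipocytes, such as miR-103-3p and miR-143-3p, were measured in all 12 pools at a mean level of 2.92 to 3.78, above the average assay. Lists for epithelium and for testis and epididymis, organs beside this fat pad, were also measured, at 0.24 to 4.42 and -1.17 to 1.17. In such bulk RNA fewer cells of a type and less RNA per cell cannot be told apart.

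The microRNAs of both clusters covered most of the range of the screen. MiR-93-5p ranked 38 of 504 by mean level (mean Ct 19.16), miR-106b-5p 93, miR-25-3p 109, miR-106a-5p 139 and miR-106a-3p 230. MiR-363-3p ranked 397, miR-20b-5p 440 over the 8 pools that gave a value, and miR-363-5p 499 (mean Ct 33.07). Among these 8, the 3 main arms of chromosome 5 thus ranked above the 5 arms of the X-linked cluster. The rule took passenger arms from the X-linked cluster alone. Outside the 8, the passenger arm miR-25-5p ranked 480, and miR-92a-3p, which the X-linked cluster also encodes, ranked 70. The order also holds each assay's own efficiency, so it is not an order of copy number.

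**Figure D1:**
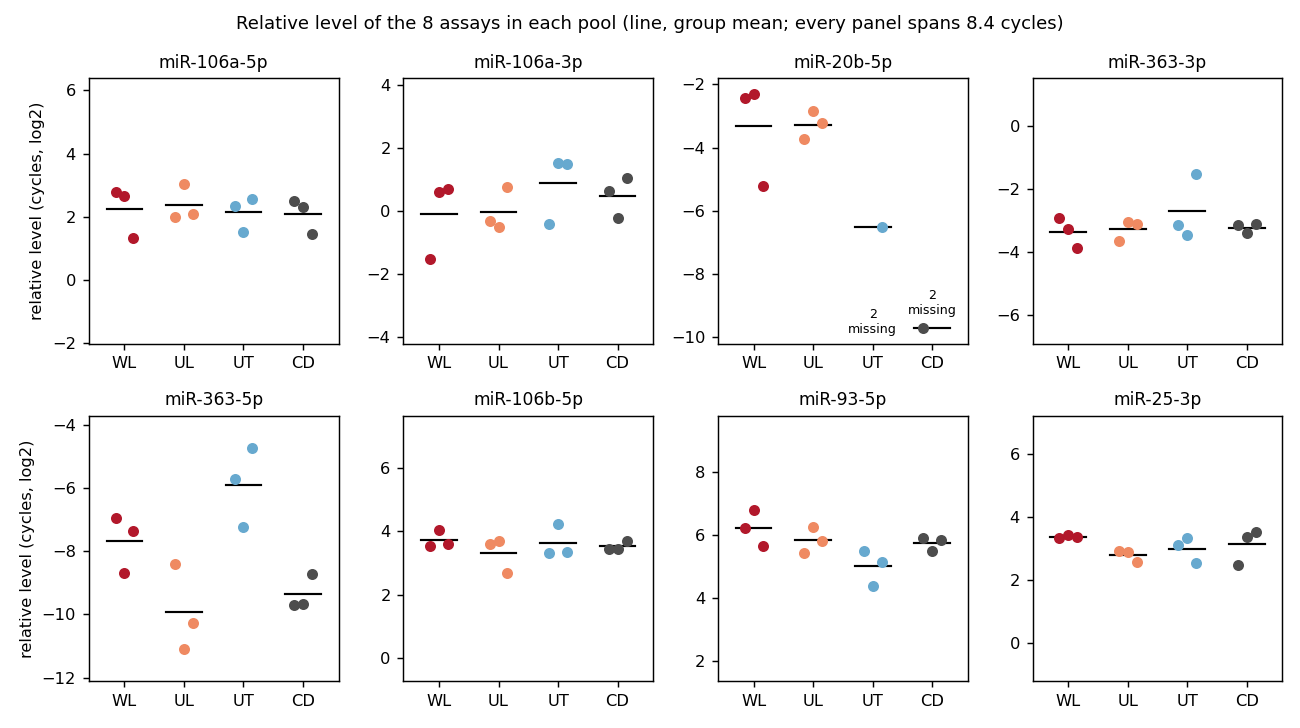
Relative level (vertical axis, cycles on a log2 scale) of the 8 microRNAs in the 3 pools of each group, with 1 point per pool and a line at the group mean. MiR-20b-5p has 1 point each in UT and CD, at -6.53 and -9.73, and miR-363-5p lies at -7.22 or above in UT against -8.73 or below in CD, while in the other 6 panels no group lies further than about 1 cycle from CD in its mean.

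No microRNA of the 8 passed the test in any comparison. Against CD, 0 of 8 passed in WL, 0 of 8 in UL and 0 of 8 in UT, where 0.595%, 0.595% and 1.39% of all 504 microRNAs did. At an unadjusted p under 0.05 the counts among the 8 were 1 in WL, 1 in UL and 2 in UT, and among all 504 they were 36, 14 and 51. The log2 fold change was above 0 for 6, 3 and 6 of the 8, with medians of 0.22, -0.13 and 0.24, against medians of -0.06, -0.07 and -0.01 over all microRNAs. Between the exposed groups 0 of 8 passed in WL against UL, in WL against UT and in UL against UT, and limma called 0.0% of all microRNAs in each, with 27, 79 and 40 of 504 and 1, 3 and 2 of the 8 at an unadjusted p under 0.05. The F test over the 4 groups passed for 0 of 8 and for 0.397% of all. Only miR-20b-5p and miR-363-5p came near the threshold in any of these tests.

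**Figure D2:**
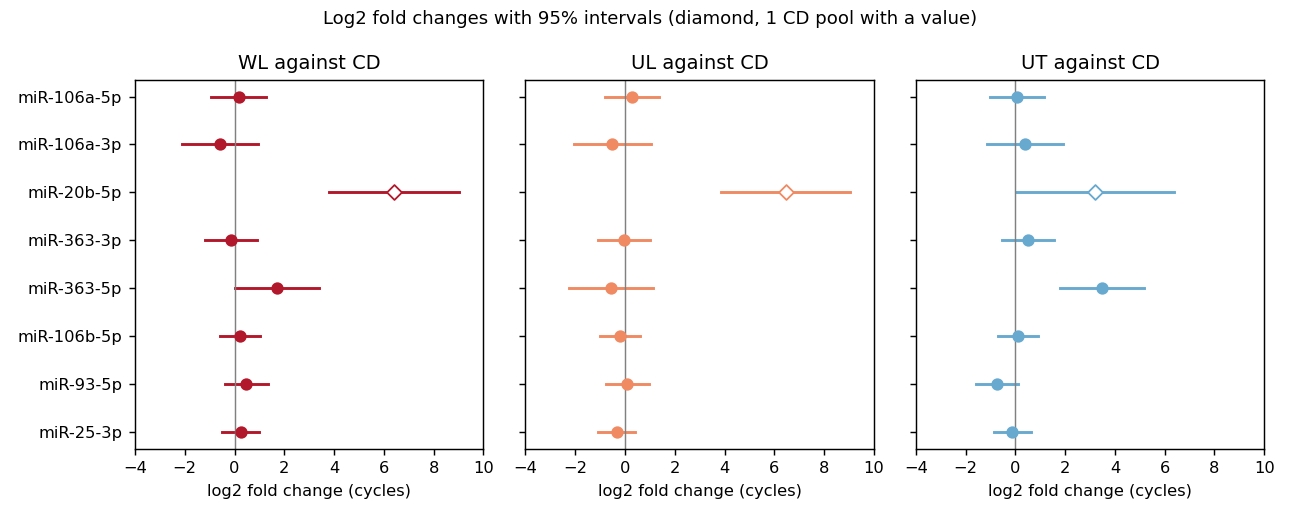
Log2 fold change (horizontal axis, cycles) of the 8 microRNAs in WL, UL and UT against CD, with 95% intervals from limma. Diamonds mark miR-20b-5p, whose CD value comes from 1 pool, at 6.42 in WL, 6.46 in UL and 3.20 in UT, and miR-363-5p stands at 3.47 in UT, while the intervals of the other 6 cross 0 in all 3 panels.

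MiR-20b-5p shares the seed of miR-17 and, in human breast cancer cells, is known to target HIF1A and VEGFA, which drive the response to low oxygen and the growth of vessels. Its Ct was 27.33, 27.20 and 30.22 in WL 1 to 3, 28.70, 27.82 and 28.10 in UL 1 to 3, 31.59 in UT 3 and 34.53 in CD 1. UT 1, UT 2, CD 2 and CD 3 had no value. All 6 pools of WL and UL thus gave a Ct at or before 30.22, and the 6 pools of UT and CD gave either a later Ct or none.

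In relative level miR-20b-5p averaged -3.32 ± 1.66 in WL and -3.27 ± 0.45 in UL (SD, n = 3 each), and the single values were -6.53 in UT and -9.73 in CD. WL 3, at -5.23, lay below the other WL pools (-2.43 and -2.29) and below all UL pools (-3.74, -2.85 and -3.23). The log2 fold change against CD was 6.42 in WL (SE 1.11, 95% interval 3.81 to 9.02, limma adjusted p = 0.0572) and 6.46 in UL (SE 1.11, interval 3.86 to 9.06, limma adjusted p = 0.0685). Each sets 3 pools against the single CD 1. By size these ranked 3 of 504 in both comparisons. WL and UL differed by -0.05 (interval -1.89 to 1.79, limma adjusted p = 0.991), which leaves room for a difference of nearly 2 cycles either way.

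The single UT value lay 3.20 above that of CD (SE 1.36, limma adjusted p = 0.484), with the spread taken from WL and UL. It lay 3.21 below the mean of WL (WL minus UT, limma adjusted p = 0.262) and 3.26 below that of UL (UL minus UT, limma adjusted p = 0.539). The sources used here do not say whether a missing value stands for too little template or for a failed reaction. With missing values set to a Ct of 40, the log2 fold change against CD became 10.03 in WL and 10.08 in UL (limma adjusted p = 0.207 and 0.363), and that of UT became 0.91 (limma adjusted p = 0.94). Without WL 3 the log2 fold change in WL was 7.37 and passed (limma adjusted p = 0.000863), as did UL against CD (6.46, limma adjusted p = 0.00139), WL against UT (4.17, limma adjusted p = 0.00931) and UL against UT (3.26, limma adjusted p = 0.0252), since the estimated spread then rested on the other pools. Without CD 1 no comparison with CD can be made.

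A pair of other assays had a like pattern. MiR-291b-5p, from a cluster of embryonic stem cells, was the only other assay missing in exactly UT 1, UT 2, CD 2 and CD 3. Its Ct was 27.24 to 28.50 in WL, 27.53 to 27.97 in UL, 28.34 in UT 3 and 35.92 in CD 1. MiR-494, which belongs to an imprinted cluster on chromosome 12, had Ct 19.60 to 19.94 in WL and 19.82 to 20.04 in UL. It was at 22.99 in UT 3, missing in UT 1 and UT 2, and at 25.11, 34.04 and 34.37 in CD 1 to 3. With all assays sorted by accession number, miR-494 lies 1 place and miR-291b-5p 2 places from miR-20b-5p.

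For the 10 nearest assays in that sorting, the median of their deviations from their own means was 0.26 to 0.96 in WL, 0.78 to 1.01 in UL, -0.38 to 0.42 in UT and -1.65, -1.27 and 0.17 in CD. CD 1 and CD 2 were thus the lowest of the 12 pools in these neighbours. Like CD 2, CD 3, UT 1 and UT 2 had no value of miR-20b-5p, and their neighbours lay at 0.17, -0.38 and -0.29. With this median subtracted, a setting chosen after the data were seen, the log2 fold change of miR-20b-5p was 4.22 in WL (limma adjusted p = 0.51) and 3.95 in UL (limma adjusted p = 0.597). The part of neighbouring assays in the result was not tested further.

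**Figure D3:**
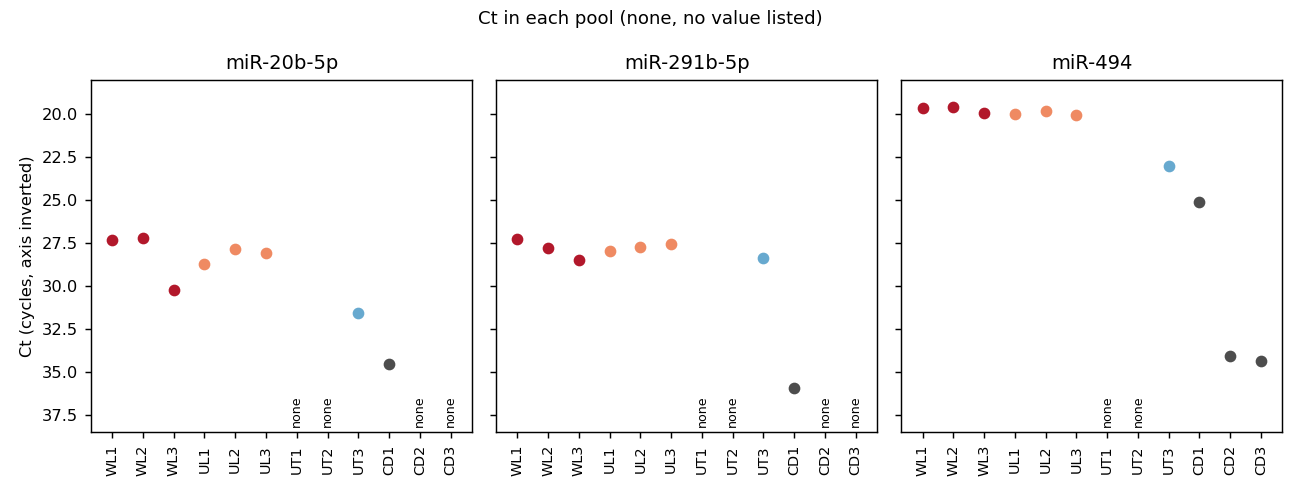
Ct (vertical axis, inverted so that more template is higher) of miR-20b-5p and of miR-291b-5p and miR-494 in each of the 12 pools, with the word none where no value was listed. In all 3 panels CD 1 lies later than the WL and UL pools, and UT 1 and UT 2 have no value. The WL and UL pools form a band for miR-291b-5p and miR-494. For miR-20b-5p, WL 3 lies at 30.22 and the other WL and UL pools at 27.20 to 28.70.

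The nearest sequences to miR-20b-5p did not share its late or missing values in UT and CD. Within WL and UL they did vary alike. As for miR-20b-5p, WL 3 was the lowest WL pool and UL 2 the highest UL pool for miR-106a-5p, miR-20a-5p and miR-17-5p. In WL 1 to 3 miR-17-5p lay at 2.03, 2.44 and -0.44, and miR-20a-5p at 2.96, 3.62 and 1.76. MiR-106a-5p, 2 bases away and encoded in the same cluster, was measured in every pool: at 2.78, 2.65 and 1.31 in WL, 2.00, 3.05 and 2.07 in UL, 2.34, 1.5 and 2.57 in UT, and 2.49, 2.32 and 1.44 in CD. These groups overlapped throughout. Its log2 fold change against CD was 0.16 in WL (95% interval -0.93 to 1.25), 0.29 in UL (-0.80 to 1.38) and 0.05 in UT (-1.03 to 1.14), with limma adjusted p of 0.978, 0.995 and 1. MiR-20a-5p, also 2 bases away, lay -0.49 (WL), -0.15 (UL) and -0.46 (UT) from CD in log2 fold change (SE 0.59, limma adjusted p 0.837 to 0.995). For miR-17-5p, at the same distance, the values were 0.16, 0.69 and -0.22 (SE 0.67, limma adjusted p 0.945 to 0.995). The difference between miR-20b-5p and these microRNAs was not tested.

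MiR-363-5p is the passenger arm of the miR-363 hairpin. Its relative level was -6.94, -8.70 and -7.37 in WL, -8.39, -11.08 and -10.26 in UL, -5.72, -7.22 and -4.73 in UT, and -9.69, -9.66 and -8.73 in CD. The UT pools lay above all CD and UL pools and overlapped with WL, where WL 1 was above UT 2. The WL pools also lay above the CD pools, the nearest at -8.70 and -8.73, and UL and CD overlapped. These are late signals, with Ct between 29.79 and 36.05.

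The mean level of miR-363-5p was -7.67 ± 0.91 in WL, -9.91 ± 1.38 in UL, -5.89 ± 1.25 in UT and -9.36 ± 0.54 for the CD pools (SD, n = 3 each), so that UT was highest, followed by WL, CD and UL. Against CD the log2 fold change was 3.47 in UT (SE 0.77, interval 1.78 to 5.16, limma adjusted p = 0.0521), higher in 3 of 3 pools. It ranked 8 of 504 by p and 9 by size. In WL it was 1.69 (SE 0.77, limma adjusted p = 0.663) and in UL -0.55 (SE 0.77, interval -2.24 to 1.14, limma adjusted p = 0.995). No neighbours in the order of means passed limma's test against each other. Between exposure until weaning and exposure in the womb only, UL minus UT, the difference was -4.02 (SE 0.77, interval -5.71 to -2.33, limma adjusted p = 0.0607), which ranked 2 of 504 by p. WL lay 2.24 above UL (limma adjusted p = 0.805) and 1.78 below UT (WL minus UT, limma adjusted p = 0.291).

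UL 2 and UL 3 had a Ct after 35, and with such values set to missing UL against UT became -2.50 from 1 UL pool (limma adjusted p = 0.53). WL 3, the pool that shared the exchanged assays with UT, lay at -7.37, between the other WL pools. Over UT 1 to 3 and WL 3 together the level ran from -7.37 to -4.73, and over the other 8 pools from -11.08 to -6.94. Without WL 3 the log2 fold change of WL against CD was 1.54 (limma adjusted p = 0.795). The median deviation of the 10 neighbouring assays lay between -0.27 and 0.44 in UT and between -0.58 and 0.54 in CD, and with it subtracted UT against CD was 3.35 (limma adjusted p = 0.055).

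Marker lists of adipocytes and of other cells were set beside this microRNA. The leukocyte list, with miR-142 and miR-223-3p, had 1 of 5 members above 0 in log2 fold change and a mean level of 0.65 to 1.31 in UT, against 1.55 to 1.96 in CD. The epithelial list, with miR-205-5p and members of the miR-200 family, had 0 of 6 above 0 and lay at 0.24 to 2.25 in UT, against 1.71 to 4.26 in CD. The testis and epididymis list, with 6 of 9 members measured, had 5 of 6 above 0 and lay at -0.49 to 1.17 in UT, against -1.17 to 0.30 in CD, and the adipocyte list had 0 of 5 above 0, at 2.92 to 3.20 against 3.37 to 3.65. The pluripotent list, with miR-294-3p and miR-302a-3p, had 5 of 6 measured members above 0, and the 5 measured in every pool lay at -4.48 to -3.82 in UT, against -5.55 to -4.62 in CD. The ranges of UT and CD did not overlap for the leukocyte, adipocyte and pluripotent lists. They overlapped for the epithelial list and for the testis and epididymis list. They also overlapped for the erythroid, muscle, liver and endothelial lists (muscle, -1.93 to -0.35 in UT against -0.94 to -0.78 in CD). Of all single microRNAs, 48.8% were above 0 in UT against CD, and 14.0% of those complete in both groups had ranges without overlap. No measured member of any of these lists passed the test in UT against CD, and miR-302b-3p alone among them had missing values. Their part in the level of miR-363-5p was not tested.

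The dominant arm of the same hairpin, miR-363-3p, carries the seed of miR-25. It lay at -2.91, -3.25 and -3.88 in WL, -3.65, -3.04 and -3.11 in UL, -3.15, -3.44 and -1.51 in UT, and -3.15, -3.40 and -3.11 in CD. UT 3 was the highest of all pools and the groups overlapped. The log2 fold change was -0.13 in WL (interval -1.17 to 0.91), -0.04 in UL (-1.09 to 1.00) and 0.52 in UT (-0.52 to 1.56), with limma adjusted p of 0.978, 0.995 and 0.809. Both arms were measured in the same pool, so the difference between them is free of the scaling of the pool. The 5p arm minus the 3p arm was -4.32 ± 1.01 in WL, -6.64 ± 1.71 in UL, -3.19 ± 0.61 in UT and -6.14 ± 0.47 for CD (SD, n = 3 each). The 3 UT pools ranged from -3.78 to -2.57, and the 3 CD pools from -6.54 to -5.62, without overlap. In UL the range was -8.04 to -4.74, and WL 1 to 3 had -4.03, -5.45 and -3.49. WL 3 thus lay inside the range of UT, with which it shared the exchanged arms of miR-676. Whether such an exchange touched the arms of miR-363 was not tested. No test was run on these differences.

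The arms of miR-106a were nearer to each other. The 5p arm minus the 3p arm was 2.33 ± 1.86 in WL, 2.39 ± 1.13 in UL, 1.26 ± 1.40 in UT and 1.59 ± 1.10 for CD (SD, n = 3 each), and over all pools it ran from -0.03 in UT 2 to 4.31 in WL 1. The passenger arm miR-106a-3p itself had log2 fold changes of -0.57, -0.51 and 0.38 in WL, UL and UT against CD (SE 0.70, limma adjusted p 0.925 to 0.995), and its groups overlapped. For miR-25 the passenger 5p arm minus the 3p arm ran from -11.03 to -7.75 over the 12 pools.

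**Figure D4:**
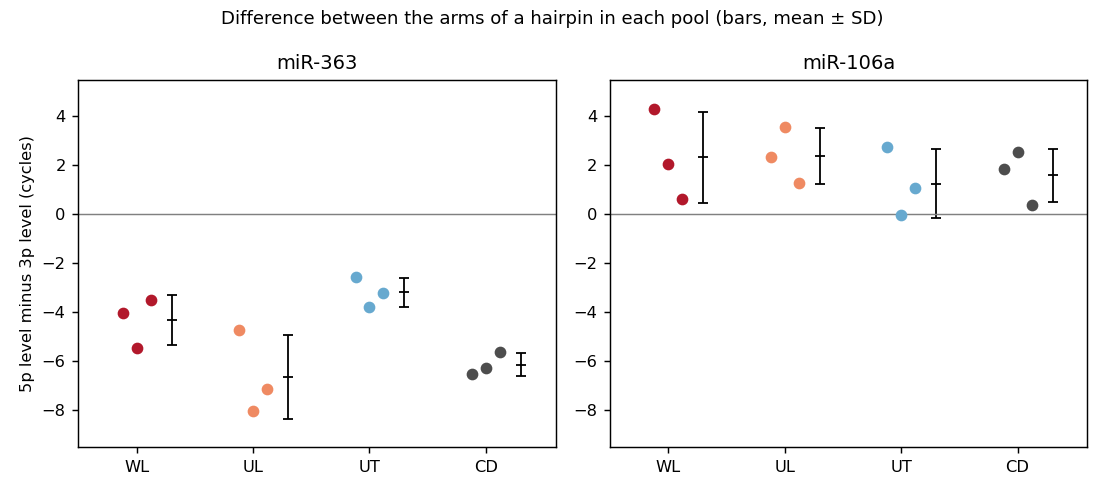
Level of the 5p arm minus that of the 3p arm (vertical axis, cycles) for the hairpins of miR-363 and miR-106a, with 1 point per pool and bars for the mean ± SD of each group. For miR-363 the UT pools lie between -3.78 and -2.57 and the CD pools between -6.54 and -5.62, while the groups of miR-106a overlap.

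Of the chromosome 5 cluster, miR-93-5p, for which a role in limiting fat mass has been described in mice, lay at 6.21, 6.78 and 5.67 in WL, 5.43, 6.26 and 5.81 in UL, 5.49, 4.38 and 5.16 in UT, and 5.90, 5.49 and 5.86 in CD. The UT pools were below all CD pools, although the nearest were both at 5.49, and below all WL pools. The group means were 6.22 ± 0.56 in WL, 5.84 ± 0.42 in UL, 5.01 ± 0.57 in UT and 5.75 ± 0.22 for CD (SD, n = 3 each). The log2 fold change against CD was -0.74 in UT (SE 0.39, limma adjusted p = 0.599), 0.47 in WL (limma adjusted p = 0.956) and 0.09 in UL (limma adjusted p = 0.995), and WL lay 1.21 above UT (SE 0.39, limma adjusted p = 0.206). With RNU-43 as the reference RNA, where the median of all microRNAs in UT against CD was 0.73 in place of -0.01, the UT value of miR-93-5p was 0.00, and with neighbouring assays in accession order subtracted it was -0.21.

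MiR-25-3p, the seed partner of miR-92a, lay at 3.33, 3.43 and 3.36 in WL, 2.93, 2.88 and 2.56 in UL, 3.10, 3.34 and 2.55 in UT, and 2.48, 3.38 and 3.53 in CD. All WL pools lay above all UL pools, and both groups fell inside the range of CD. WL exceeded UL by 0.58 (SE 0.34, interval -0.17 to 1.33, limma adjusted p = 0.805). Against CD the log2 fold change was 0.24 in WL, -0.34 in UL and -0.13 in UT (SE 0.34, limma adjusted p 0.935 to 0.995).

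MiR-106b-5p, which in human cells targets the cell-cycle inhibitor CDKN1A, lay at 3.55 to 4.06 in WL, 2.69 to 3.70 in UL, 3.33 to 4.24 in UT and 3.44 to 3.71 in CD, and all groups overlapped with CD. Its log2 fold change against CD was 0.20 in WL, -0.21 in UL and 0.10 in UT (SE 0.37), each with a 95% interval inside -1.01 to 1.01. A change of more than about 2-fold in either direction lies outside these intervals, which rest on the scaling by mean Ct. With RNU-43 as the reference RNA the UT value was 0.85 (limma adjusted p = 0.273), where the median of all microRNAs was 0.73. The limit is thus not shown for UT under that scaling.

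Groups whose pools did not overlap were counted over the microRNAs complete in both groups. In WL against CD this held for 1 of 7, miR-363-5p, and for 11.0% of all microRNAs, and in UL against CD for 0 of 7 and 7.88%. In UT against CD it held for 2 of 7, miR-363-5p and miR-93-5p, and for 14.0% of all. Between exposed groups it held for miR-25-3p in WL against UL (1 of 8, against 9.88%), for miR-93-5p in WL against UT (1 of 7, against 19.3%) and for miR-363-5p in UL against UT (1 of 7, against 13.3%). With 7 or 8 members, a count of 0 to 2 is near these shares.

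The other products of both clusters and the paralogous cluster of chromosome 14 showed no call either. Of 7 listed cluster mates and passenger arms 4 were measured, and 0 passed in any comparison. MiR-19b-3p had 0.31, 0.04 and -0.05 in WL, UL and UT as log2 fold changes against CD (SE 0.37), and miR-92a-3p had 0.41, 0.22 and -0.28 (SE 0.36). Both are made from chromosomes X and 14 with the same mature sequence, so the assays cannot say which cluster they come from. For the arms of the 6 hairpins of the miR-17 to miR-92a cluster 14 names were listed, some of them alternative names of the same arm. Of these names 9 were measured and 0 passed in any comparison. Their median log2 fold change against CD was 0.16 for WL, 0.04 for UL and -0.09 for UT. The largest of them in size was miR-17-3p in UL, which shares its seed with miR-106a-3p: -0.93 ± 0.23 in UL, against -2.44 ± 0.27 in CD (SD, n = 3 each). UL thus exceeded CD by 1.51 (SE 0.43, limma adjusted p = 0.46), where miR-106a-3p had -0.51.

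In the seed groups of miR-17 and of miR-25, miR-20b-5p and miR-32-5p held the values largest in size. The 5 measured sharers of the seed of miR-20b-5p lay at -0.49 to 0.47 (WL), -0.21 to 0.69 (UL) and -0.74 to 0.10 (UT) in log2 fold change against CD. In the group of miR-25, miR-32-5p, at a low mean level of -4.03, is encoded outside these clusters. It had 1.72 in WL, -0.56 in UL and -0.62 in UT. The other 3 of this group had -0.13 to 0.41 in WL, -0.34 to 0.22 in UL and -0.28 to 0.52 in UT.

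Among the 466 microRNAs measured in all pools, those most like each of the 7 complete members were named by Pearson's r over the 12 pools, which share scaling and depth. For miR-106a-5p they were miR-101b-3p (0.91), miR-17-5p (0.90) and miR-301a-3p (0.90), and for miR-93-5p miR-92a-3p (0.84), miR-29c-3p (0.79) and miR-29a-3p (0.78). For miR-106b-5p they were miR-19a-3p (0.75), miR-762 (0.70) and miR-744-5p (0.68), and for miR-25-3p miR-744-5p (0.85), miR-762 (0.77) and miR-697 (0.76). For miR-363-3p they were miR-431 (0.92), miR-9-5p (0.91) and miR-31-5p (0.91), for miR-363-5p miR-329-5p (0.83), miR-346-3p (0.79) and miR-184-5p (0.78), and for miR-106a-3p miR-298-3p (0.82), miR-301a-5p (0.79) and miR-122-3p (0.76). No member was among the nearest 3 of another: over their 21 pairs r ran from -0.52, between the arms of miR-106a, to 0.62, between miR-25-3p and miR-106b-5p, with a median of -0.06.

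In the authors' deposited table of fold changes, where a value below 1 stands for a lower Ct, miR-20b-5p was listed at 0.113, miR-363-5p at 0.128 and miR-93-5p at 1.95 for UT. These equal the ratios of the deposited normalized values of the UT and CD pools. In the authors' deposited table the values of miR-363-5p for WL and UL were 1.28 and 0.271, whereas the deposited normalized values of the pools gave 0.36 and 1.88, so the directions differ. The sources used here do not tell which values lie behind the WL and UL columns.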

How the data were processed

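RNA came from frozen epididymal fat (miRNeasy kit, per the labels' protocols). For the PCR platform, its chemistry and the threshold rule: not given in the sources used here. The values analysed were the threshold cycles (Ct) the authors deposited as not yet normalized, per the file headers. A table of normalized values, deposited as a ratio to a constant per pool (24.74 to 25.46 on the Ct scale), served as an alternative, and the authors' deposited ratio of group values (fold change) is quoted where named. Of 507 rows, 1 repeat was dropped and 2 reference RNAs were kept apart, leaving 504 microRNAs.

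Levels were scaled by each pool's mean Ct over 466 complete microRNAs and fitted as 4 groups with limma 3.58.1 in R 4.3.3, missing values left out, with Benjamini-Hochberg adjustment at 0.05. The fit was tested on simulated data. Tables were made in Python 3.11.15. Pools with the same number did not vary together (correlation of deviations -0.27 to 0.26 over 18 pairs), so they were not treated as paired. The microRNAs named are the members, their cluster mates, the miR-17 to miR-92a list, assays with the same seed, and the 3 nearest by correlation. Members and lists were chosen with earlier results of these data known.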

Additional observations from a re-analysis of the deposited data

Results flagged for a closer look

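MiR-25-3p lay on opposite sides of the CD mean in the groups exposed beyond birth: all 3 WL pools (3.33 to 3.43) were above it and all 3 UL pools (2.56 to 2.93) below it, a WL minus UL difference of 0.58 (SE 0.34). The difference itself did not pass the test over all microRNAs (limma adjusted p = 0.805), and the CD pools, at 2.48, 3.38 and 3.53, spanned both groups.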

How the results depend on the processing

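Over 28 results for the 8 microRNAs, 712 values under up to 26 other settings were compared with those reported. Of these, 677 kept direction and side of the threshold (or moved by less than the spread), 30 newly passed, 5 moved, and 0 reversed a call. No result had passed as reported, so there was no call to lose. Leaving out a pool of a group outside a comparison cannot change its log2 fold change, so part of the 677 repeat the same estimate. MiR-20b-5p passed in 6 of 24 settings in WL against CD (4.22 to 10.03, adjusted p 0.000863 to 0.51) and in 7 of 24 in UL (3.95 to 10.08, 0.00139 to 0.597), and in 2 of 24 in WL against UT (2.12 to 9.12, 0.00931 to 0.515) and 1 of 24 in UL against UT (2.32 to 9.17, 0.0252 to 0.877). It has no value among complete microRNAs or without CD 1. The U6-snRNA setting among these also left out pools without a U6-snRNA value. MiR-363-5p passed in 8 of 25 settings in UT against CD (2.56 to 4.21, 0.0171 to 0.239) and in 6 of 25 in UL against UT (-4.78 to -2.50, 0.00777 to 0.53), and removing mean Ct of 30 or later drops it. With Ct of 35 or later set to missing, UL against CD became 0.97. RNU-43 scaling, under which the median of all was 0.30 in UL and 0.73 in UT (-0.07 and -0.01 as reported), gave miR-25-3p 0.03 in UL and 0.61 in UT and miR-93-5p 0.00 in UT, and subtracting neighbours in accession order gave miR-25-3p -0.26 in WL.

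Counts of microRNAs that passed, over all 504, were 3 in WL, 3 in UL and 7 in UT against CD, 0 in each comparison of exposed groups, and 2 in the F test. RNU-43 scaling gave 5 in UL, 12 in UT, 1 in WL against UT, 4 in UL against UT and 10 in the F test. U6-snRNA scaling used only the pools with a U6-snRNA value. For members with a value in every pool, its fold changes match a fit without WL 3 and UT 1 apart from a common shift. In WL against CD, miR-106a-5p had 0.88 with it and 0.63 without WL 3. U6-snRNA scaling gave 1 in WL against UL, 9 in WL against UT, 5 in UL against UT and 10 in the F test. Leaving out WL 3 alone gave 1, 12, 8 and 12 there, so the reference RNA and the loss of pools cannot be told apart. Ct of 35 or later set to missing gave 0 in WL, UL and the F test, and removing mean Ct of 30 or later gave 1 in the F test. Complete microRNAs alone gave 0, 0 and 1 against CD and 0 in the F test, where fewer were tested. Missing values set to 40 gave 1, 1 and 2 and an F count of 1. Sample weights gave 6, 6 and 12, then 7 in WL and 7 in UL against UT, and 14 in the F test. A fit on the groups compared alone gave 1 in WL against CD and 5 in UL against UT, and does not apply to the F test. Subtracting neighbours gave 2 (file order) or 4 (accession order) in UT. Leaving out a pool gave 2 to 6 in WL, 2 to 6 in UL, 1 to 10 in UT, 0 to 1 in WL against UL, 0 to 12 in WL against UT, 0 to 8 in UL against UT and 1 to 12 in the F test. The cause of these shifts was not tested.

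With the replicate number as a block, 4 passed in UT against CD, 1 in UL against UT and 4 in the F test, and miR-363-5p passed in UT against CD (3.47, adjusted p = 0.0213) and in UL against UT (-4.02, adjusted p = 0.0275). The numbers were not shown to pair the pools: 5 of 12 correlated best with a pool of their own number.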
